A study of Drosophila melanogaster with 7 samples.

Results

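The glutathione transferases (Gst) and UDP-glycosyltransferases (Ugt) of the fly were followed in salivary glands of prepupae that expressed the yeast activator GAL4. Members were all genes whose probe sets carried a single gene symbol beginning with Gst and a letter or with Ugt and a digit. This gave 69 genes, 34 Gst and 35 Ugt, of 11981 genes with such a probe set, read by 71 of 18769 fly probe sets. GstE9 and GstO2 had 2 probe sets each, and the brighter over the 7 arrays was used.

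Glutathione transferases join the tripeptide glutathione to reactive compounds, and the conjugates are then exported from the cell. UDP-glycosyltransferases attach a sugar from a UDP-sugar, in insects mostly glucose, to small lipophilic molecules and so make them soluble. Insects use both families against plant toxins and insecticides, and some members act on the body's own metabolites. The delta and epsilon classes of Gst are expanded in insects, whereas the omega, sigma, theta and zeta classes are shared with mammals.

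All animals were reared at 25 °C and heat-shocked at 37 °C for 30 min, and their glands were taken 14 h after the puparium had formed. Line X1 (P{hs-GAL4}X1, 2 copies) had 3 arrays. Line 89 (P{hs-GAL4}89, also named P{GAL4-Hsp70.PB}89-2-1) had a single array at 2 copies and a single array at 1 copy. The w1118 strain, without GAL4, had 2 arrays. The series text calls the arrays of X1 and of w1118 biological replicates. A heat-shock promoter drives GAL4 in both lines and is not specific to the gland, and each line is a single stock. The GAL4 animals were shocked at 9 h after that time point and the w1118 animals at 9.5 h, so that 5 h passed before dissection in the GAL4 lines and 4.5 h in w1118. The effects of GAL4, of shock time and of strain background cannot be told apart in any comparison with w1118.

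Values are dChip intensities on a linear scale, which order the arrays for 1 gene but do not compare the amounts of different genes. Median intensity was 33.7 to 38.0 in X1, 44.9 (2 copies) and 40.8 (1 copy) in line 89, and 42.2 to 42.5 in w1118. Control transcripts of Bacillus subtilis had a higher ratio of 3′ to 5′ signal in X1. For the dap control it was 16 to 20.4 in X1, 3.84 (2 copies) and 3.77 (1 copy) in line 89 and 2.33 to 3.01 in w1118. The same ratio for fly GAPDH was 1.40 to 1.61 in X1, 1.45 (2 copies) and 1.21 (1 copy) in line 89 and 1.15 to 1.16 in w1118. For fly actin the groups overlapped, at 2.39 to 3.95 in X1, 3.24 (2 copies) and 2.16 (1 copy) in line 89 and 2.61 to 2.70 in w1118. For eIF-4a the ratio was 1.79 to 2.05 in X1, 2.71 (2 copies) and 1.74 (1 copy) in line 89 and 1.58 to 1.63 in w1118. The part of the difference in control transcripts in the results with X1 was not tested.

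The tissue label was set against marker genes, and calls are those of X1 against w1118. Of the salivary gland markers 12 of 14 were measured, with 1 higher (Sgs3), 2 lower (Sgs7 and sage) and a median log2 change of -0.73. Their summed level was lower on every GAL4 array, at 6843 to 7619 in X1, 7579 (2 copies) and 3533 (1 copy) in line 89, and 9697 to 11940 in w1118. The gland transcription factor gene sage lay at 164 to 228 in X1, 442 (2 copies) and 340 (1 copy) in line 89 and 404 to 475 in w1118. Another such gene, fkh, went the other way and was not called. It lay at 146 to 390 in X1, 180 (2 copies) and 181 (1 copy) in line 89 and 91.3 to 97.8 in w1118.

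Of the fat body markers 7 of 10 were measured and none was listed at 0, although Yp1 was under 16 on all X1 arrays. The fat body serum protein gene Lsp2 lay at 4178 to 5260 in X1, 5698 (2 copies) and 6458 (1 copy) in line 89 and 5571 to 5624 in w1118. Lsd-1, a lipid droplet protein gene, was higher, at 4246 to 8388 in X1, 7728 (2 copies) and 618 (1 copy) in line 89, and 320 to 510 in w1118. Fbp2 was lower, at 27.2 to 54.3 in X1, 37.7 (2 copies) and 996 (1 copy) in line 89, and 1647 to 2267 in w1118, and so was Yp1. Fbp1, a receptor gene of the fat body, lay at 1089 to 2333 in X1, 3240 (2 copies) and 3141 (1 copy) in line 89 and 3700 to 4630 in w1118 and was not called. The summed fat body level was 12024 to 18351 in X1, 20694 (2 copies) and 14025 (1 copy) in line 89, and 13965 to 15216 in w1118. Without Lsd-1, singled out after its values were seen, the sum was 7778 to 9963 in X1, 12966 (2 copies) and 13406 (1 copy) in line 89, and 13645 to 14705 in w1118. Every X1 array was then below both w1118 arrays, in a sum that leaves out the sole called rise of the list. Not every marker in that sum was lower in X1. The log2 change was 0.01 for apolpp and 0.21 for Yp2, and neither was called. Fat body is rich in detoxification enzymes, and its part in the results below was not tested.

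Of 7 measured midgut markers (10 listed) 1 was higher (thetaTry) and 2 were lower (LysP and alphaTry), and their sums were 200 to 266 in X1, 286 (2 copies) and 269 (1 copy) in line 89, and 265 to 298 in w1118. Of 6 Malpighian tubule markers (8 listed) 1 was higher (ClC-a, at 430 to 936 in X1, 1215 with 2 copies and 609 with 1 copy in line 89, and 53.4 to 54.0 in w1118) and 1 was lower (Irk3). Best2 of that list lay at 325 to 525 in X1, 1104 (2 copies) and 343 (1 copy) in line 89, and 806 to 900 in w1118 and was not called. The Malpighian tubule sums were 1072 to 1339 in X1, 2488 (2 copies) and 1046 (1 copy) in line 89, and 1005 to 1068 in w1118. Of 7 hemocyte markers 0 were higher and 2 lower (Ppn and NimC1), and srp, not called, lay at 135 to 322 in X1, 200 (2 copies) and 165 (1 copy) in line 89, and 131 to 144 in w1118. The hemocyte sums were 317 to 560 in X1, 647 (2 copies) and 390 (1 copy) in line 89, and 491 to 505 in w1118. The part of these cell types in the results was not tested. In such bulk samples fewer cells of a type and less RNA per cell cannot be told apart.

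Most members were dim in the gland. Of the 35 Ugt genes, 29 (82.9%) stayed under an intensity of 100 on all 7 arrays, compared with 14 of 34 Gst genes (41.2%) and 50% of all genes. The members at 1000 or above numbered 7 on each X1 array, 6 (2 copies) and 7 (1 copy) on the line 89 arrays, and 5 on each w1118 array. As shares these were 10.1% in X1, 8.7% (2 copies) and 10.1% (1 copy) in line 89, and 7.25% in w1118. Over all genes the shares were close, at 9.62 to 11.3% in X1, 10.3% (2 copies) and 9.84% (1 copy) in line 89, and 8.34 to 8.55% in w1118. The genes that reached 1000 as a group mean were the delta genes GstD1 and GstD3, the epsilon gene GstE1, the omega gene GstO3, the theta genes GstT3 and GstT4, and Ugt36D1. Of these, GstT3 and Ugt36D1 were under 1000 on both w1118 arrays.

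The comparison of X1 with w1118 asks which genes respond in glands that express GAL4. In X1, 20 of 69 members (29.0%) were called at a limma adjusted p under 0.05, against 21.0% of all 11981 genes. Higher were 6 members, the theta genes GstT3 and GstT4, the epsilon genes GstE11 and GstE12, GstO3 and Ugt37A1. Lower were 14 members, of which 4 lay in the delta cluster. Over all genes 9.46% were called higher and 11.5% lower. The Gst genes had 5 rises and 7 falls of 34, and the Ugt genes 1 rise and 7 falls of 35. The median log2 change was -0.37 for Gst and 0.00 for Ugt genes, compared with -0.12 for all genes.

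Not every call had the same footing. Among members whose brighter group mean was at least 1000, 3 of 7 rose and 0 fell (all genes 515 and 140 of 1489). Where that mean lay from 64 up to 1000, 2 rose and 8 fell of 24 (all genes 531 and 790 of 5057). Where it was under 64, 1 rose and 6 fell of 38 (all genes 88 and 451 of 5435), and these calls rest on values close to the floor of 16 that was set before taking logarithms. Leaving out w1118 replicate 1 or 2 leaves 1 array in that group, and fewer members were called. Leaving out X1 replicate 2 or 3 gave 10 or 11 calls, and leaving out X1 replicate 1 gave 23. A floor of 64 gave 9 calls, 8 of them among the 20. With all 5 GAL4 arrays as 1 group there were 2, GstT4 higher and GstD10 lower. Calls over all 18769 fly probe sets also changed, from 1407 higher and 1997 lower. They became 771 and 848 without X1 replicate 2, 738 and 925 without X1 replicate 3, and 1939 and 2231 without X1 replicate 1.

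**Figure D1:**
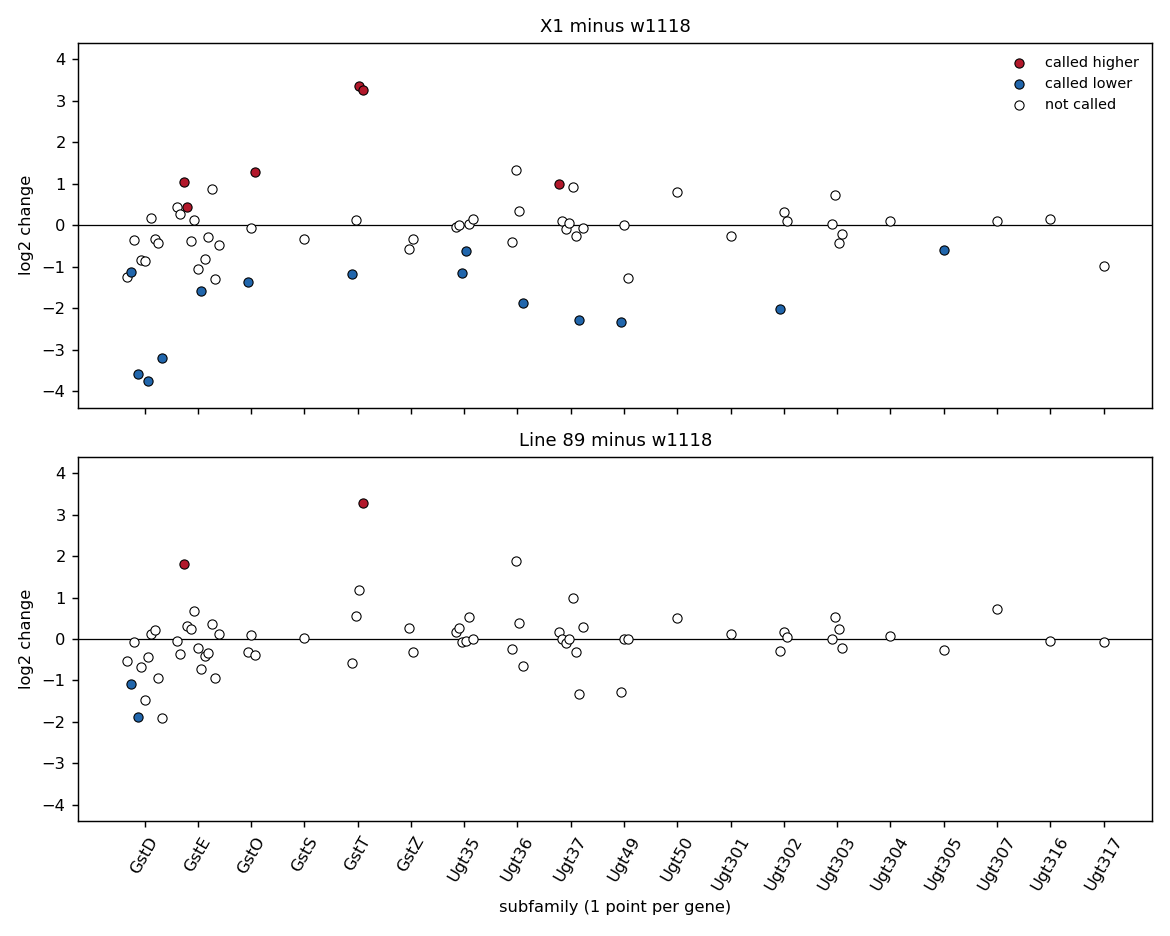
Log2 change of each of the 69 genes by subfamily, X1 minus w1118 above and line 89 minus w1118 below, 1 point per gene, filled red where called higher and blue where called lower at an adjusted p under 0.05. In the upper panel the theta class holds the 2 points above 3 and the delta class the 3 points under -3, while in the lower panel 4 points are filled.

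The theta class held the largest rises. GstT4 lay at 9959, 12373 and 11594 in X1, at 9417 (2 copies) and 13575 (1 copy) in line 89, and at 1284 and 1076 in w1118. All 5 GAL4 arrays stood far above both w1118 arrays, and X1 and line 89 overlapped. The rise was 9.58-fold in X1 (log2 change 3.26 ± 0.14 SE, adjusted p = 0.00221) and 9.62-fold in line 89 (3.27 ± 0.22, adjusted p = 0.00470). Both comparisons used the same w1118 arrays. X1 minus line 89 was -0.01, with a 95% interval of -0.53 to 0.52 on the log2 scale. GstT4 kept its call in 15 of 16 alternatives in each comparison, each of which changed 1 choice. In line 89 it lost the call with a fit of only the 4 line 89 and w1118 arrays (adjusted p = 0.106). That fit called 0 of all 18769 fly probe sets.

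GstT3, a further theta gene, behaved otherwise. It lay at 1204, 1323 and 1256 in X1, at 217 (2 copies) and 358 (1 copy) in line 89, and at 136 and 111 in w1118. None of the groups overlapped, and line 89 stood between the others. It rose 10.3-fold in X1 (3.36 ± 0.12, adjusted p = 0.00155). In line 89 the change was 2.27-fold and was not called (1.19 ± 0.26, adjusted p = 0.0904). The test of the difference itself gave a level 4.52-fold higher in X1 than in line 89 (2.18 ± 0.24, adjusted p = 0.0340), and this call held in 7 of 15 alternatives. It ended without X1 replicate 1, 2 or 3 (adjusted p = 0.0690, 0.121 and 0.105). Without X1 replicate 2 or 3 the test called 0 of all 18769 fly probe sets. The call also ended without w1118 replicate 1 or 2, each leaving 1 w1118 array (log2 difference 2.18 for either). With all 5 GAL4 arrays as 1 group the log2 change from w1118 was 2.49 and was not called (adjusted p = 0.166). That setting joins X1 with the lower line 89 arrays and so does not test X1 alone.

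The other theta genes, GstT1 and GstT2, are neighbours in the reference annotation. GstT1 fell to 414, 341 and 429 in X1, against 889 and 907 in w1118, with 704 (2 copies) and 512 (1 copy) in line 89. This was a 2.29-fold fall in X1 (-1.19 ± 0.13, adjusted p = 0.0129), and it was not called in line 89 (-0.58 ± 0.20, adjusted p = 0.222). With the arrays scaled to hybridization controls the X1 change was -0.52 in log2 and not called (adjusted p = 0.153). The call also ended without w1118 replicate 1 or 2 (adjusted p = 0.0807 and 0.0816). GstT2 lay between 96.7 and 147 on all 7 arrays and was not called in any comparison.

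**Figure D2:**
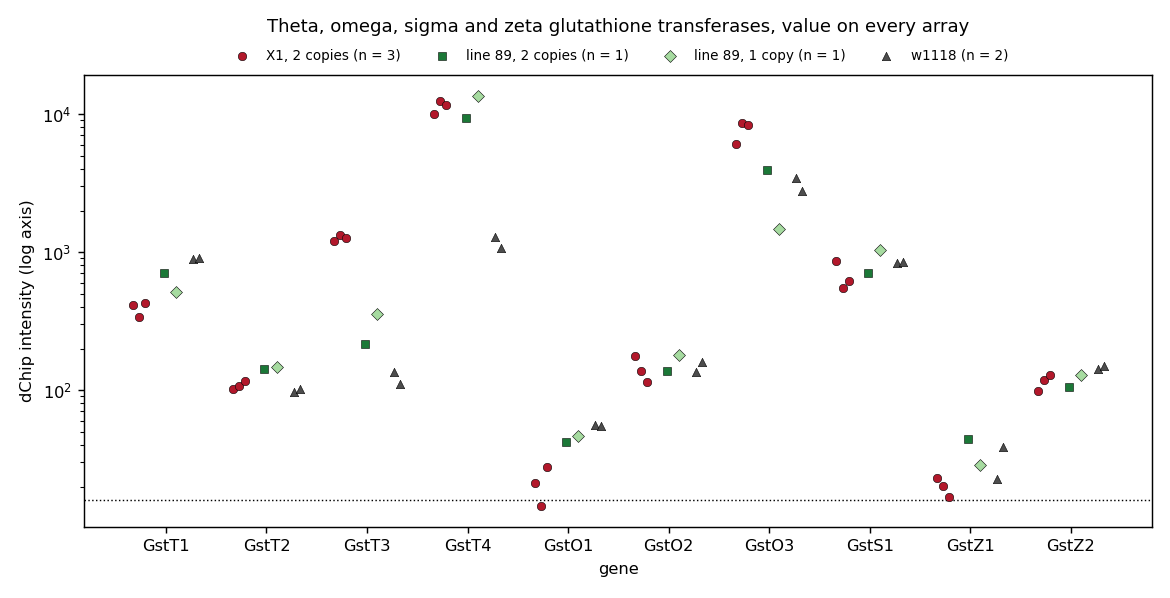
Intensity on a log axis of the theta, omega, sigma and zeta genes on every array, with X1 as red circles, line 89 with 2 copies as dark green squares, line 89 with 1 copy as light green diamonds and w1118 as grey triangles, and the floor of 16 as a dotted line. For GstT4 all GAL4 arrays stand above w1118, for GstT3 the X1 arrays stand above line 89, and for GstO3 the line 89 arrays lie on either side of w1118.

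Of the omega class, which in other animals reduces rather than conjugates many of its substrates, GstO3 was high. It lay at 6071, 8674 and 8354 in X1, at 3915 (2 copies) and 1465 (1 copy) in line 89, and at 3457 and 2792 in w1118. All X1 arrays were above all others, and the line 89 arrays enclosed the w1118 values. The rise in X1 was 2.45-fold (1.29 ± 0.22, adjusted p = 0.0347) and held in 7 of 16 alternatives, with a log2 range of 0.62 to 1.96. It ended without w1118 replicate 1 or 2 (adjusted p = 0.123 and 0.168) and without X1 replicate 2 or 3 (adjusted p = 0.108 and 0.115). GstO1 was dim and fell 2.61-fold in X1 with the floor, at 21.2, 14.4 and 27.8 against 55.4 and 55.0 in w1118 (adjusted p = 0.0468), with 42.3 (2 copies) and 46.2 (1 copy) in line 89. This call held in 3 of 15 alternatives and ended when any w1118 or X1 array was left out (adjusted p = 0.0521 to 0.210). GstO2 lay between 114 and 181 on all arrays and was not called, nor was its dimmer probe set.

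The sigma and zeta classes showed no calls. GstS1, the sole sigma enzyme of the fly, lay at 867, 546 and 617 in X1, at 711 (2 copies) and 1032 (1 copy) in line 89, and at 838 and 847 in w1118. The groups overlapped, and the log2 change in X1 was -0.34, with a 95% interval of -1.01 to 0.33. GstZ2, of the class that acts in tyrosine breakdown, lay at 99.3, 119 and 129 in X1, 105 (2 copies) and 129 (1 copy) in line 89, and 141 and 149 in w1118 (-0.33 in X1, adjusted p = 0.199). GstZ1 stayed under 44 on all arrays.

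The 11 delta genes form a single run of neighbours in the reference annotation, and 4 of them were lower in X1, 0 higher and 7 not called. Thus 36.4% were called, all lower, against 21.0% of all genes called and 11.5% called lower. GstD2 lay at 31.5, 23.5 and 27 in X1, at 113 (2 copies) and 70.8 (1 copy) in line 89, and at 306 and 356 in w1118. The groups did not overlap, with line 89 between X1 and w1118. The fall was 12.2-fold in X1 (-3.60 ± 0.16, adjusted p = 0.00236) and 3.69-fold in line 89 (-1.88 ± 0.27, adjusted p = 0.0331). X1 minus line 89 was -1.72 (adjusted p = 0.0504), just short of a call. The X1 call held in 14 of 16 alternatives and the line 89 call in 8 of 16, ending without w1118 replicate 1 or 2 (adjusted p = 0.121 and 0.149) and without X1 replicate 1, 2 or 3 (adjusted p = 0.0558, 0.0797 and 0.100).

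GstD9 showed the same order of groups. It lay at 47.7, 58.1 and 63.1 in X1, at 211 (2 copies) and 89.8 (1 copy) in line 89, and at 513 and 523 in w1118. It was 9.26-fold lower in X1 (-3.21 ± 0.14, adjusted p = 0.00228), held in 14 of 16 alternatives, and was not called in line 89 (-1.91 ± 0.42, adjusted p = 0.0905). GstD5 lay at 50.9, 16.9 and 16.5 in X1, at 386 (2 copies) and 155 (1 copy) in line 89, and at 308 and 353 in w1118, so that line 89 with 2 copies was above both w1118 arrays. Its 13.6-fold fall in X1 (-3.77 ± 0.63, adjusted p = 0.0335) held in 9 of 16 alternatives. It ended without w1118 replicate 1 or 2 (adjusted p = 0.164 and 0.171) and without X1 replicate 2 or 3 (adjusted p = 0.108 and 0.104). X1 minus line 89 was -3.34 for GstD5 and was not called (adjusted p = 0.0880).

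GstD10, at an end of the run, was dim on every array. It lay at 7.33, 4.8 and 15.7 in X1, at 16.4 (2 copies) and 16.6 (1 copy) in line 89, and at 32.7 and 37.4 in w1118. All X1 arrays were under the floor, which makes it at least 2.19-fold lower in X1 (adjusted p = 0.00477), and it was 2.12-fold lower in line 89 (adjusted p = 0.00814). Both calls ended with a floor of 1 or 64.

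The delta genes with high signal changed less in X1 than GstD2, GstD5 and GstD9. GstD1, which degrades the insecticide DDT, lay at 3673, 1410 and 1450 in X1, at 2959 (2 copies) and 3489 (1 copy) in line 89, and at 4758 and 4534 in w1118. X1 replicate 1 stood well above the other X1 arrays. The change in X1 was -1.25 ± 0.53 in log2 and was not called (adjusted p = 0.212). Without X1 replicate 1 the GstD1 change was -1.70 and was called, the sole call among its 16 alternatives. GstD3 lay at 1275, 2055 and 1767 in X1, at 3175 (2 copies) and 1107 (1 copy) in line 89, and at 2882 and 3126 in w1118 (-0.85 in X1, adjusted p = 0.102). The other 5 delta genes stayed under 80 on all arrays and were not called. Delta genes are close paralogs, and cross-hybridization between their probe sets was not tested.

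**Figure D3:**
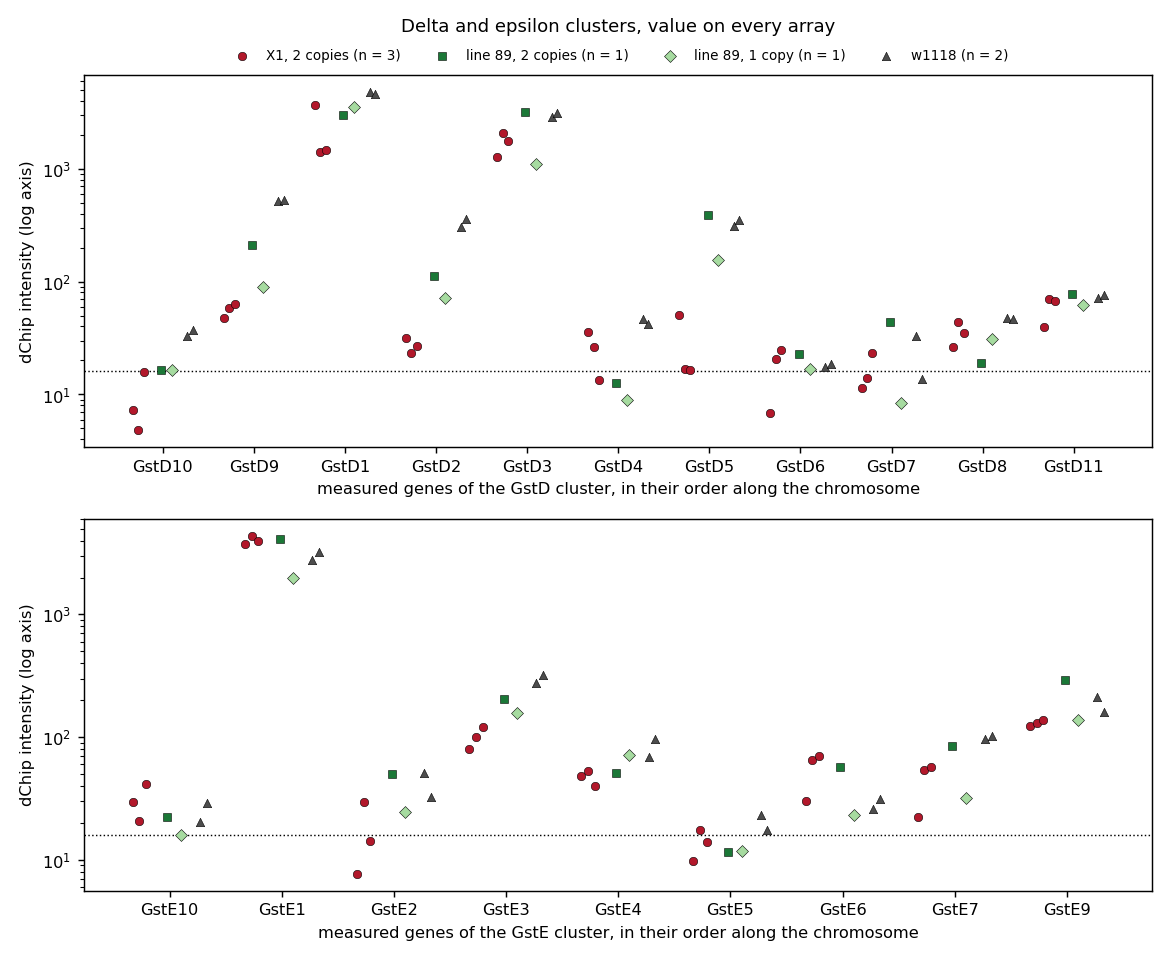
Intensity on a log axis of the 11 delta genes (above) and of the 9 measured genes of the epsilon cluster (below), in their order along the chromosome, with X1 as red circles, line 89 with 2 copies as dark green squares, line 89 with 1 copy as light green diamonds and w1118 as grey triangles, and the floor of 16 as a dotted line. The X1 arrays lie lowest for GstD9, GstD2 and GstD5, while GstD1 and GstD3 stay above 1000 on all arrays.

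Of 13 epsilon genes 2 were higher in X1, 1 was lower and 10 were not called, so that 23.1% were called, near the 21.0% of all genes. GstE11 lay at 223, 178 and 255 in X1, at 342 (2 copies) and 406 (1 copy) in line 89, and at 105 and 106 in w1118. All GAL4 arrays were above w1118, with line 89 above X1. It rose 2.05-fold in X1 (1.04 ± 0.18, adjusted p = 0.0359) and 3.53-fold in line 89 (1.82 ± 0.19, adjusted p = 0.0155). The X1 call held in 8 of 16 alternatives, ending without w1118 replicate 1 or 2 (adjusted p = 0.176 and 0.168) and without X1 replicate 1 or 3 (adjusted p = 0.0828 and 0.0773). The line 89 call held in 13 of 16 and also ended without w1118 replicate 1 or 2 (adjusted p = 0.0790 and 0.0778). X1 minus line 89 was not called (-0.78, adjusted p = 0.110).

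GstE12 rose only 1.35-fold in X1, at 799, 811 and 802 against 597 and 593 in w1118 (0.43 ± 0.04, adjusted p = 0.00853), with 878 (2 copies) and 627 (1 copy) in line 89. The call ended after quantile normalization, where the log2 change was 0.16. GstE3 fell 3.00-fold in X1, at 79.9, 100 and 121 against 274 and 321 in w1118 (-1.59 ± 0.22, adjusted p = 0.0221), with 206 (2 copies) and 156 (1 copy) in line 89. Its call ended without w1118 replicate 1 or 2 (adjusted p = 0.104 and 0.124) and without X1 replicate 2 (adjusted p = 0.0903). In the epsilon cluster, where 9 of 10 family genes in a run were measured, GstE3 held the sole call. GstE1 lay at 3740, 4399 and 3996 in X1, at 4147 (2 copies) and 1988 (1 copy) in line 89, and at 2767 and 3239 in w1118, and its change of 0.43 in X1 was not called (adjusted p = 0.0901). GstE9 lay at 123, 130 and 138 in X1, at 290 (2 copies) and 139 (1 copy) in line 89, and at 211 and 159 in w1118 (-0.49 in X1, adjusted p = 0.121). GstE13 lay at 164, 53.8 and 68.2 in X1, at 107 (2 copies) and 154 (1 copy) in line 89, and at 105 and 114 in w1118, with X1 replicate 1 apart from the other X1 arrays. GstE7 lay at 22.5, 53.6 and 56.6 in X1, at 83.9 (2 copies) and 31.7 (1 copy) in line 89, and at 96.8 and 103 in w1118, and like GstE13 it was not called. GstE14, which acts in ecdysteroid synthesis in the prothoracic gland, stayed under 41 on all arrays and was not called.

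The Ugt calls were mostly falls of dim genes. The clearest signal was that of Ugt36D1, at 1356, 2255 and 1900 in X1, at 3402 (2 copies) and 2019 (1 copy) in line 89, and at 622 and 829 in w1118. All GAL4 arrays were above w1118, yet neither change was called, at 2.50-fold in X1 (1.32 ± 0.29, adjusted p = 0.0595) and 3.65-fold in line 89 (1.87 ± 0.37, adjusted p = 0.0688). The 95% intervals were 0.50 to 2.15 in X1 and 0.92 to 2.82 in line 89. Ugt36D1 lies between Ugt36F1 and Ugt36E1 in the reference annotation. Ugt36F1 fell in X1, at 5.14, 15.5 and 16.1 against 69.9 and 50.3 in w1118 (3.70-fold with the floor, adjusted p = 0.00824), with 42.0 (2 copies) and 33.7 (1 copy) in line 89, and its call ended with a floor of 1 or 64 and without X1 replicate 2 (adjusted p = 0.0512). Ugt36E1 lay at 32.5, 69.0 and 90.6 in X1, 100 (2 copies) and 36.3 (1 copy) in line 89, and 39.2 and 54.5 in w1118, with overlap of all groups.

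Among the other falls, Ugt302C1 lay at 31.8, 21.7 and 30.9 in X1, at 88.9 (2 copies) and 96.1 (1 copy) in line 89, and at 119 and 107 in w1118. It was 4.07-fold lower in X1 than in w1118 (-2.02 ± 0.22, adjusted p = 0.0130) and 3.33-fold lower in X1 than in line 89 (-1.74 ± 0.20, adjusted p = 0.0340). The call against w1118 ended without w1118 replicate 1 or 2 (adjusted p = 0.0882 and 0.0755) and without X1 replicate 3 (adjusted p = 0.0547), and that against line 89 held in 1 of 14 alternatives. Ugt37D1 lay at 17.7, 12.4 and 20.0 in X1, at 19.4 (2 copies) and 61.5 (1 copy) in line 89, and at 95.5 and 78.3 in w1118, a 4.86-fold fall in X1 with the floor (adjusted p = 0.00465) that held in 12 of 15 alternatives. Line 89 with 2 copies lay at the X1 level and with 1 copy between X1 and w1118. Ugt49B1 lay at 18.7, 26.6 and 18.3 in X1, at 55.0 (2 copies) and 33.5 (1 copy) in line 89, and at 80.0 and 137 in w1118 (5.02-fold lower in X1, adjusted p = 0.0242). That call held in 7 of 16 alternatives and ended when any w1118 or X1 array was left out (adjusted p = 0.0507 to 0.0913).

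Smaller calls in X1 concerned genes near the floor. Ugt35C1 lay at 6.68, 20.0 and 21.5 in X1, at 41.0 (2 copies) and 39.2 (1 copy) in line 89, and at 41.7 and 42.6 in w1118, and fell in X1 against both (adjusted p = 0.0209 against w1118 and 0.0440 against line 89). These calls held in 6 of 15 and 2 of 14 alternatives, and both ended without w1118 replicate 1 or 2 and without X1 replicate 2 or 3 (adjusted p = 0.0538 to 0.135). Ugt35D1 (log2 change -0.63) and Ugt305A1 (-0.61) fell, and Ugt37A1 (0.98, at 42.9, 31.8 and 34.6 in X1 against 19.7 and 17.1 in w1118) rose. These 3 calls held in 3, 4 and 6 of 15 alternatives, and with a floor of 64 each change was 0.00. All 3 ended without w1118 replicate 1 and without X1 replicate 2 or 3 (adjusted p = 0.0619 to 0.134).

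**Figure D4:**
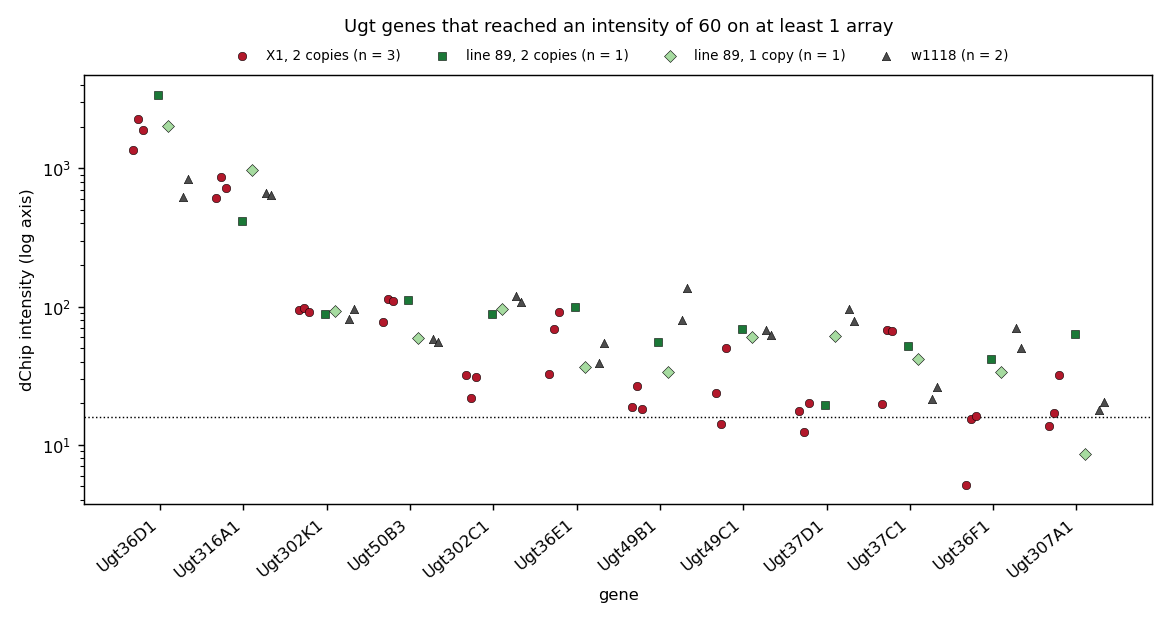
Intensity on a log axis of the 12 Ugt genes that reached 60 on at least 1 array, with X1 as red circles, line 89 with 2 copies as dark green squares, line 89 with 1 copy as light green diamonds and w1118 as grey triangles, and the floor of 16 as a dotted line. Ugt36D1 is higher on all GAL4 arrays than on w1118 arrays, and for Ugt302C1 the X1 arrays lie below the line 89 and w1118 arrays.

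Ugt316A1 and Ugt302K1 had signal without a call. Ugt316A1 lay at 610, 859 and 714 in X1, at 415 (2 copies) and 966 (1 copy) in line 89, and at 664 and 641 in w1118. Ugt302K1 lay between 81.0 and 97.6 on all arrays, and its log2 change had a 95% interval of -0.16 to 0.37 in X1. Ugt50B3 lay at 77.8, 113 and 110 in X1, at 111 (2 copies) and 59.3 (1 copy) in line 89, and at 58.5 and 55.1 in w1118 (0.80 in X1, adjusted p = 0.0840). Of the single or brightest genes of the remaining families, Ugt317A1 lay at 21.1 to 31.7 in X1, 52.8 (2 copies) and 46.6 (1 copy) in line 89, and 46.8 to 57.8 in w1118. Ugt301D1, Ugt303B2, Ugt304A1 and Ugt307A1 stayed under 64 on all arrays and were not called. The remaining Ugt35, Ugt36, Ugt37, Ugt49, Ugt302 and Ugt303 genes were not called in any comparison, and the highest among them was Ugt49C1 at 68.7 on the 2-copy array. Of these, Ugt49B2 was under 16 on all 7 arrays.

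The comparison of line 89 with w1118 asks whether another insertion responds, with both line 89 arrays as 1 group. Of the 69 members, 4 (5.80%) were called, against 5.11% of all genes. They were GstT4 and GstE11 among the rises and GstD2 and GstD10 among the falls, with the values given above. In all, 3.54% of genes were called higher and 1.57% lower. The copy number difference counts as spread in this test. More members were called without the 1-copy array and fewer without w1118 replicate 1 or 2, and the same held over all fly probe sets. Each of these fits leaves 1 array in a group.

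Direct comparison of X1 with line 89 called 4 members (5.80%), against 2.36% of all genes (0.985% higher and 1.38% lower). GstT3 was higher in X1, and Ugt302C1, Ugt35C1 and Ugt36F1 were lower. For Ugt36F1 the log2 difference was -1.23 ± 0.18 (adjusted p = 0.0499), and this call held in 1 of 14 alternatives. The 4 calls became 1 without X1 replicate 1 and 0 without X1 replicate 2 or 3. Without X1 replicate 2 or 3 the test called 0 of all 18769 fly probe sets. The calls also ended without either w1118 replicate, which leaves 1 w1118 array.

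Line 89 offered 1 array at each copy number, which permits no test. Of 23 members at 100 or above on a line 89 array, 7 (30.4%) were at least 2-fold higher with 2 copies, against 14.5% of all such genes. Lower by as much was 1 member (4.35%), against 12.4%. The higher members were GstD3 (3175 with 2 copies and 1107 with 1 copy), Ugt36E1 (100 with 2 copies and 36.3 with 1 copy), GstO3 (3915 with 2 copies and 1465 with 1 copy), GstD5 (386 with 2 copies and 155 with 1 copy), GstD9 (211 with 2 copies and 89.8 with 1 copy), GstE1 (4147 with 2 copies and 1988 with 1 copy) and GstE9 (290 with 2 copies and 139 with 1 copy). For each of these 7 members the 1-copy array lay below both w1118 arrays, and for all but GstD9 the 2-copy array lay above both. For GstD5 and GstD9 the 1-copy array was the farther from w1118, where GstD5 lay at 308 and 353 and GstD9 at 513 and 523. The same held for GstD3 (2882 and 3126 in w1118) and GstO3 (3457 and 2792 in w1118). Ugt316A1 was lower, at 415 with 2 copies and 966 with 1 copy. GstT4, the largest rise in line 89, lay at 9417 with 2 copies and 13575 with 1 copy.

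**Figure D5:**
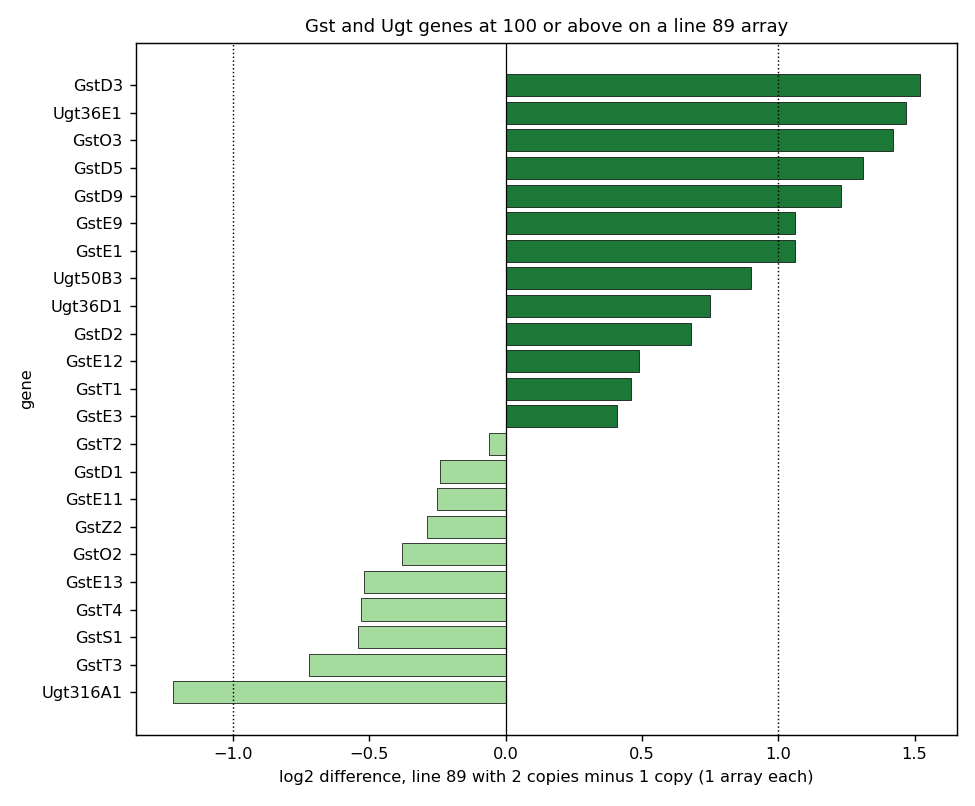
Log2 difference of line 89 with 2 copies minus 1 copy for the 23 genes at 100 or above on either array, 1 array each and without error, with dotted lines at a 2-fold difference. Of the bars, 7 extend past 2-fold to the right, led by GstD3 at 1.52, and 1, Ugt316A1 at -1.22, extends past it to the left.

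The genes around the transferases were read from lists of the same pathways, whose counts in X1 stand against 9.46% of all genes called higher, 11.5% called lower and a median log2 change of -0.12. Of 11 measured genes of glutathione supply and use, 2 rose in X1 and 0 fell, with a median log2 change of 0.00, and the share called was near that of all genes (21.0%). Ggt-1, a gamma-glutamyl transpeptidase that starts the breakdown of glutathione conjugates, lay at 805, 1039 and 928 in X1, at 855 (2 copies) and 179 (1 copy) in line 89, and at 72.3 and 52.2 in w1118 (15.0-fold in X1, adjusted p = 0.00306). Trxr1, the thioredoxin reductase that keeps glutathione reduced in flies, lay at 4131, 4846 and 3934 in X1, at 2519 (2 copies) and 1720 (1 copy) in line 89, and at 717 and 819 in w1118. It rose 5.59-fold in X1 (adjusted p = 0.00305) and 2.72-fold in line 89 (adjusted p = 0.0386). The line 89 call of Trxr1 ended without the 2-copy array (adjusted p = 0.0569) and without any single w1118 or X1 array (adjusted p = 0.0717 to 0.163). The subunits of the enzyme that starts glutathione synthesis, Gclc and Gclm, were not called. Gclc lay at 242 to 492 in X1, 219 (2 copies) and 83.2 (1 copy) in line 89, and 416 to 445 in w1118, and Gclm at 46.2 to 262 in X1, 138 (2 copies) and 98.4 (1 copy) in line 89, and 129 to 180 in w1118.

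Of 5 exporters of conjugates and drugs 1 rose in X1 and 0 fell, against 9.46% and 11.5% of all genes. Mrp4, an ABC transporter, lay at 6802, 9707 and 8523 in X1, at 5075 (2 copies) and 2469 (1 copy) in line 89, and at 359 and 447 in w1118. All GAL4 arrays were above w1118, by 20.6-fold in X1 (4.36 ± 0.21, adjusted p = 0.00256) and 8.83-fold in line 89 (adjusted p = 0.0229). The X1 call held in 15 of 16 alternatives, while the line 89 call of Mrp4 ended without w1118 replicate 1 or 2 (adjusted p = 0.114 and 0.0930) and without X1 replicate 2 or 3 (adjusted p = 0.0676 and 0.0799). MRP, also an ABC transporter, was not called (-0.26 in X1).

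Among 6 measured genes on the list for UDP-sugar supply and transport, 2 rose in X1 and 0 fell, against 9.46% and 11.5% of all genes. The median log2 change of the 6 was 1.14, against -0.12 for all genes. The 6 included sll, whose place in this pathway was not checked and which was not called (-0.85 in X1). The gene sgl, for the dehydrogenase that makes UDP-glucuronic acid, lay at 663, 332 and 389 in X1, at 518 (2 copies) and 445 (1 copy) in line 89, and at 118 and 123 in w1118 (3.66-fold in X1, adjusted p = 0.0435). The X1 call of sgl ended without w1118 replicate 1 or 2 (adjusted p = 0.204 and 0.192) and without X1 replicate 2 or 3 (adjusted p = 0.0822 and 0.120). In line 89 its change was 3.99-fold and not called (adjusted p = 0.0517). Pgm2a, of the phosphoglucomutase family, rose 4.85-fold in X1, at 1025, 918 and 764 against 181 and 188 in w1118 (adjusted p = 0.00472), with 264 (2 copies) and 596 (1 copy) in line 89. UGP, which makes UDP-glucose, was not called.

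Of 9 regulators of detoxification genes 0 rose and 3 fell in X1, against 9.46% and 11.5% of all genes. Keap1, the inhibitor of the antioxidant factor Cnc, lay at 47.8, 42.9 and 51.5 in X1, at 75.0 (2 copies) and 36.8 (1 copy) in line 89, and at 199 and 234 in w1118. It was 4.57-fold lower in X1 (-2.19 ± 0.12, adjusted p = 0.00352), held in 15 of 16 alternatives, and its 4.11-fold change in line 89 was not called (adjusted p = 0.0509). The genes for Cnc and its partner, cnc and maf-S, were not called, with log2 changes of 0.23 and 0.16 in X1. EcR, the ecdysone receptor gene, lay at 283, 285 and 333 in X1, at 719 (2 copies) and 914 (1 copy) in line 89, and at 749 and 727 in w1118. It fell 2.46-fold in X1 (adjusted p = 0.00627) and was lower in X1 than in line 89 (-1.44, adjusted p = 0.0324), the second call ending without any single w1118 or X1 array (adjusted p = 0.0618 to 0.117). The dim gene ss, a partner of tgo, lay at 16.7, 17.3 and 15.3 in X1, at 27.1 (2 copies) and 22.7 (1 copy) in line 89, and at 40.8 and 28.4 in w1118. Its 2.04-fold fall in X1 with the floor (adjusted p = 0.0387) held in 5 of 15 alternatives and ended without any single X1 array (adjusted p = 0.0857 to 0.127).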

How the data were processed

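The deposited values were dChip intensities from Affymetrix arrays of biotin-labelled cRNA, 1 value per probe set and array, which the authors normalised to a baseline array of median intensity 145, per the labels and series text. The dChip version, expression model and genome build are not stated in the sources used here. The table held 18952 probe sets in 7 columns, and 183 control probe sets were left out of the tests. Gene names came from the platform annotation, and all 69 members matched the Release 6 gene table by Entrez number with 0 symbols changed. That table served for names and gene order only.

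A floor of 16 was set on each intensity before taking log2. X1 and w1118 were compared with limma 3.58.1 (R 4.3.3, lmFit and eBayes, two-sided) on 5 arrays. Line 89 and X1 minus line 89 came from a fit of 7 arrays in 3 groups. Adjustment was by Benjamini-Hochberg over 18769 fly probe sets, and a gene counted as called below 0.05. Folds are from differences of log2 means, and errors are SE. Neighbours were family genes with at most 1 other protein-coding gene between them. The number of arrays limits the precision. Between X1 and w1118 arrays of equal number the correlations of deviations from the group means were -0.049 and -0.012. With 2 w1118 arrays each such value has an equal and opposite partner. They therefore cannot decide whether replicate numbers pair arrays.

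Named were members called in any comparison, with a group mean of at least 1000, brightest in their subfamily, or 2-fold apart in line 89 at 100 or above, and called genes of the pathway lists. Members and lists were chosen with earlier results of these data known. Alternatives covered floors, scalings, a filter on dim probe sets, variance models, groupings, thresholds, probe set choice, a replicate block and leaving out each array. Promoter and protein sequences were not analysed here. The probe sets of Ugt36E1, Ugt37D1, Ugt50B3 and GstS1 carry the suffix for probes shared between transcripts.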

Additional observations from a re-analysis of the deposited data

Results flagged for a closer look

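The response of 4 members differed between the GAL4 lines by the test of X1 minus line 89. GstT3 had a log2 difference of 2.18, from 1204, 1323 and 1256 in X1 against 217 (2 copies) and 358 (1 copy) in line 89. Ugt302C1 had a difference of -1.74, from 31.8, 21.7 and 30.9 in X1 against 88.9 (2 copies) and 96.1 (1 copy) in line 89. Ugt36F1 (-1.23) and Ugt35C1 (-1.08) differed at intensities under 43 in both lines. The insertion of each line, its background and the higher 3′ to 5′ ratio of the X1 control transcripts cannot be told apart in these differences. All X1 arrays had 2 copies of GAL4, while the line 89 group joined an array at 2 copies with an array at 1 copy. The part of copy number was not tested.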

How the results depend on the processing

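Of 20 members called in X1 against w1118, the count became 11 with a floor of 1, 9 with a floor of 64, 8 at an adjusted p under 0.01, 2 with all 5 GAL4 arrays as 1 group, and 9 to 23 when single arrays were left out. With the replicate block limma called 0 members (25 at an unadjusted p under 0.05) and 0 of all 18769 fly probe sets. Whether equal replicate numbers mark paired arrays could not be decided. The split of 6 rises and 14 falls became 10 and 11 with equal medians and 8 and 7 with hybridization control scaling, under which the median change over all probe sets went from -0.09 to 0.26 in X1 and from 0.00 to 0.41 in line 89. With only the 14 members called among brighter probe sets (a group mean of at least 100) the split was 6 and 8. For line 89, the 4 calls became 2 with a floor of 1, 2 at an adjusted p under 0.01, 0 with a fit of 4 arrays (14 at an unadjusted p under 0.05) and 2 to 10 when single arrays were left out, and hybridization control scaling gave 4 rises and 0 falls. For X1 minus line 89, the 4 calls became 0 with a floor of 1, a floor of 64, hybridization control scaling or an adjusted p under 0.01 (19, 9, 17 and 19 at an unadjusted p under 0.05), 1 with quantile normalization, equal medians or eBayes trend, 2 among brighter probe sets and 0 to 6 when single arrays were left out. Calls of X1 against w1118 over all fly probe sets also fell, from 1407 higher and 1997 lower in the main fit. They became 1211 and 1201 with a floor of 1, 720 and 674 with a floor of 64, and 624 and 606 with all 5 GAL4 arrays as 1 group. The cause of these changes was not tested. Over all 18769 fly probe sets, the line 89 fit of 4 arrays called 0, and X1 minus line 89 called 0 without X1 replicate 2 or 3. No called change of a named gene reversed. Over the alternatives, 370 values of called changes kept their call and 236 lost it. Of the values of changes not called in the main fits, 50 gained a call and 1359 did not.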
